A study of Mus musculus with 947 samples.

Results

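A set of 7 mature microRNAs (miRNAs) known for the exocrine or the endocrine pancreas was followed through 2 cohorts of mice by small RNA sequencing. They are mmu-miR-216a-5p, mmu-miR-216b-5p and mmu-miR-217-5p, both arms of one hairpin (mmu-miR-802-5p and mmu-miR-802-3p), mmu-miR-375-3p and mmu-miR-7a-5p, written below without the prefix. They were chosen by name, as 7 of the 1076 miRNAs measured in an aging cohort and of the 795 measured in a parabiosis cohort, and all 7 were found in both. The aging cohort is made up of C57BL/6JN mice of both sexes, with 16 tissues sampled between 1 and 27 months of age, females only until 21 months. Mice were perfused before dissection, the brain sample was a hemisphere and that of small intestine the duodenum. With 3 columns left out for want of a matching library, it gave 768 libraries. The parabiosis cohort gave 176 libraries of gonadal fat (GAT), heart, kidney, limb muscle, liver and mesenteric fat (MAT) from male mice that had been joined in pairs, and no pancreas library of it was analysed here. Isochronic young (IY) mice were C57BL/6J of 3 or 4.5 months, and isochronic aged (IA) mice were 19 months old and C57BL/6J except for 1 C57BL/6JN pair. Each heterochronic pair joined a young (HY) to an aged (HA) animal. All HY mice were 4 months old and of a strain that no other group held, and HA mice were 19 months old and C57BL/6J except for 1 C57BL/6JN animal, so that strain and group cannot be told apart wherever HY enters a comparison. The other fat depots named below are brown (BAT) and subcutaneous (SCAT).

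A miRNA is cut from a hairpin precursor whose arms can both give a mature strand (5p and 3p), and it lowers the output of messenger RNAs that pair with its seed, bases 2 to 8. miR-216a, miR-216b and miR-217 come from neighbouring hairpins and are known for the acinar cells that secrete digestive enzymes. miR-375 is the best known miRNA of the insulin-secreting beta cell, where it restrains insulin release, and is also found in other hormone-secreting and epithelial cells of gut, lung and skin. miR-7a is shared by islet cells and neurons and acts on insulin secretion as well, and miR-802 is known from liver, where it has been tied to insulin sensitivity, and from other epithelia.

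Sequences of 6 of the 7 members and of miR-7b-5p, the closest relative of a member, were found in RefSeq (GRCm38.p6) and are shown because they say which members can share targets or reads. Capitals mark the seed.
miR-216a-5p: uAAUCUCAgcuggcaacuguga
miR-216b-5p: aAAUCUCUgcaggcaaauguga
miR-217-5p: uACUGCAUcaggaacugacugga
miR-802-5p: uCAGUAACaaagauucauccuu
miR-802-3p: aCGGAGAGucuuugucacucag
miR-7a-5p: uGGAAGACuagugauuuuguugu
miR-7b-5p: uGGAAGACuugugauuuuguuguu
No 2 of the 6 members had the same seed. miR-216a-5p and miR-216b-5p differed at 4 of 22 positions. Inside the seed they differed only at its last base, and the rest of the seed was the same in both. miR-7a-5p shared its seed with miR-7b-5p and differed from it at 1 of the first 23 positions (A10U, counted from the 5′ end of miR-7a-5p), which is also the number of mismatches the authors allowed in mapping, so the level of either may hold reads of the other.

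The 3 acinar hairpins lay on chromosome 11 of GRCm38.p6, on the plus strand, in the order Mir216b (chr11:28746191-28746276), Mir216a (chr11:28757012-28757083) and Mir217 (chr11:28763728-28763835). Mir216a and Mir217 lay in introns of the long noncoding RNA Gm12082 on the same strand, while Mir216b overlapped only Mir216c on the opposite strand. Mir802 (chr16:93369720-93369816, plus strand) gives both miR-802 arms and overlapped no other gene. Mir375 (chr1:74900658-74900721, minus strand) lay 1350 bases from Cfap65. miR-7a-5p comes from both Mir7-1 (chr13:58392779-58392886, minus strand), in an intron of Hnrnpk, and Mir7-2 (chr7:78888277-78888373, plus strand).

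Levels are given in reads per 1000000 mapped reads (rpmm), the unit of the deposited values. Depth was 2.29 to 166.9 M reads (M for 1000000) per library in the aging cohort and 9.20 to 47.6 M in the parabiosis cohort, with a median of 20.1 M in both. The 44 pancreas libraries used were shallower, at 2.48 to 29.6 M with a median of 8.40 M, so that 1 rpmm there stood for 2.48 to 29.6 reads. Beside them, the pancreas library labelled 3 months, replicate 02, held only 60.3 rpmm of the 7 members together, against 10994 to 47256 rpmm in the others, and 1 read of miR-216a-5p and none of miR-216b-5p or miR-217-5p. Its miRNA total was 3181 rpmm against at least 80548 rpmm in the rest, its miRNA profile lay closest to limb muscle, and it was left out. Another 10 libraries lay closest to a tissue other than their label, among them the 3 MAT libraries of 27 months and 1 of 9 months. Age correlations of miR-216a-5p and miR-217-5p in MAT are given with and without these. The others were 3 of SCAT, 2 of bone and 1 of skin, and single results of those tissues are given with them included. In whole tissue, fewer cells of a type and less RNA per cell cannot be told apart.

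The acinar miRNAs were close to private to the pancreas. miR-216a-5p had a median of 4268 rpmm over the 44 pancreas libraries (1249 to 11661), and its next level, in brain, was 16.5 rpmm (3.27 to 32.9), 259 times lower. MAT followed at 7.54 rpmm (0.678 to 39.2), and outside brain, pancreas and fat no tissue had a median over 1.05 rpmm. miR-217-5p reached 1661 rpmm in pancreas (786 to 7241) and 4.22 rpmm in brain (0.0422 to 11.7), a ratio of medians of 394, and miR-216b-5p reached 352 rpmm in pancreas (181 to 1775) and 1.27 rpmm in brain, a ratio of 277. The lowest pancreas library stood above the highest library of any other tissue for all 3.

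The members known from islets were spread more widely. miR-375-3p, with a pancreas median of 11784 rpmm (4184 to 24526), was the most abundant of all miRNAs there, ahead of miR-216a-5p at rank 8, miR-802-5p at rank 21, miR-217-5p at 25, miR-7a-5p at 26, miR-802-3p at 34 and miR-216b-5p at 48. Its next levels, each below the last by more than the spread between libraries, were 3483 rpmm in small intestine (1250 to 6454), 644 rpmm in lung (164 to 1811) and 170 rpmm in kidney (29.3 to 626). Brain at 76.7 rpmm and skin at 63.7 rpmm were not separated, and marrow was lowest at 5.77 rpmm. miR-7a-5p was the only member not highest in pancreas. Brain had 3552 rpmm (556 to 10061) and small intestine 2177 rpmm (630 to 3876), which did not differ beyond the spread, and pancreas came next, separated from both neighbours, at 1451 rpmm (616 to 4083). Even limb muscle, the lowest tissue, had 82.8 rpmm of it, so no tissue lacked miR-7a-5p. Scaled to miRNA reads in place of all mapped reads, all 7 members including miR-7a-5p were highest in pancreas. The members were left out of the divisor of this scaling, which raises pancreas most, where their share was largest.

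Both miR-802 arms marked pancreas, small intestine, liver and kidney and little else. miR-802-5p had medians of 2013 rpmm in pancreas (350 to 3927), 348 rpmm in small intestine (29.8 to 760), 130 rpmm in liver (21.6 to 490) and 14.3 rpmm in kidney (1.03 to 70.8), each separated from the next, and the fifth tissue, SCAT, had 1.86 rpmm. miR-802-3p followed at 888, 144, 89.7 and 7.88 rpmm in the same order, with small intestine and liver not separated. A skin library of 21 months whose profile lay closest to liver held 157.9 rpmm of miR-802-5p, against a skin median of 0.481 rpmm. Together the 7 members made up 12.6 to 24.3% of the miRNA signal of a pancreas library (median 17.3%), with miR-375-3p alone at 5.18 to 13.0%. In small intestine their share was at most 2.15% and in limb muscle its median was 0.0151%.

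**Figure D1:**
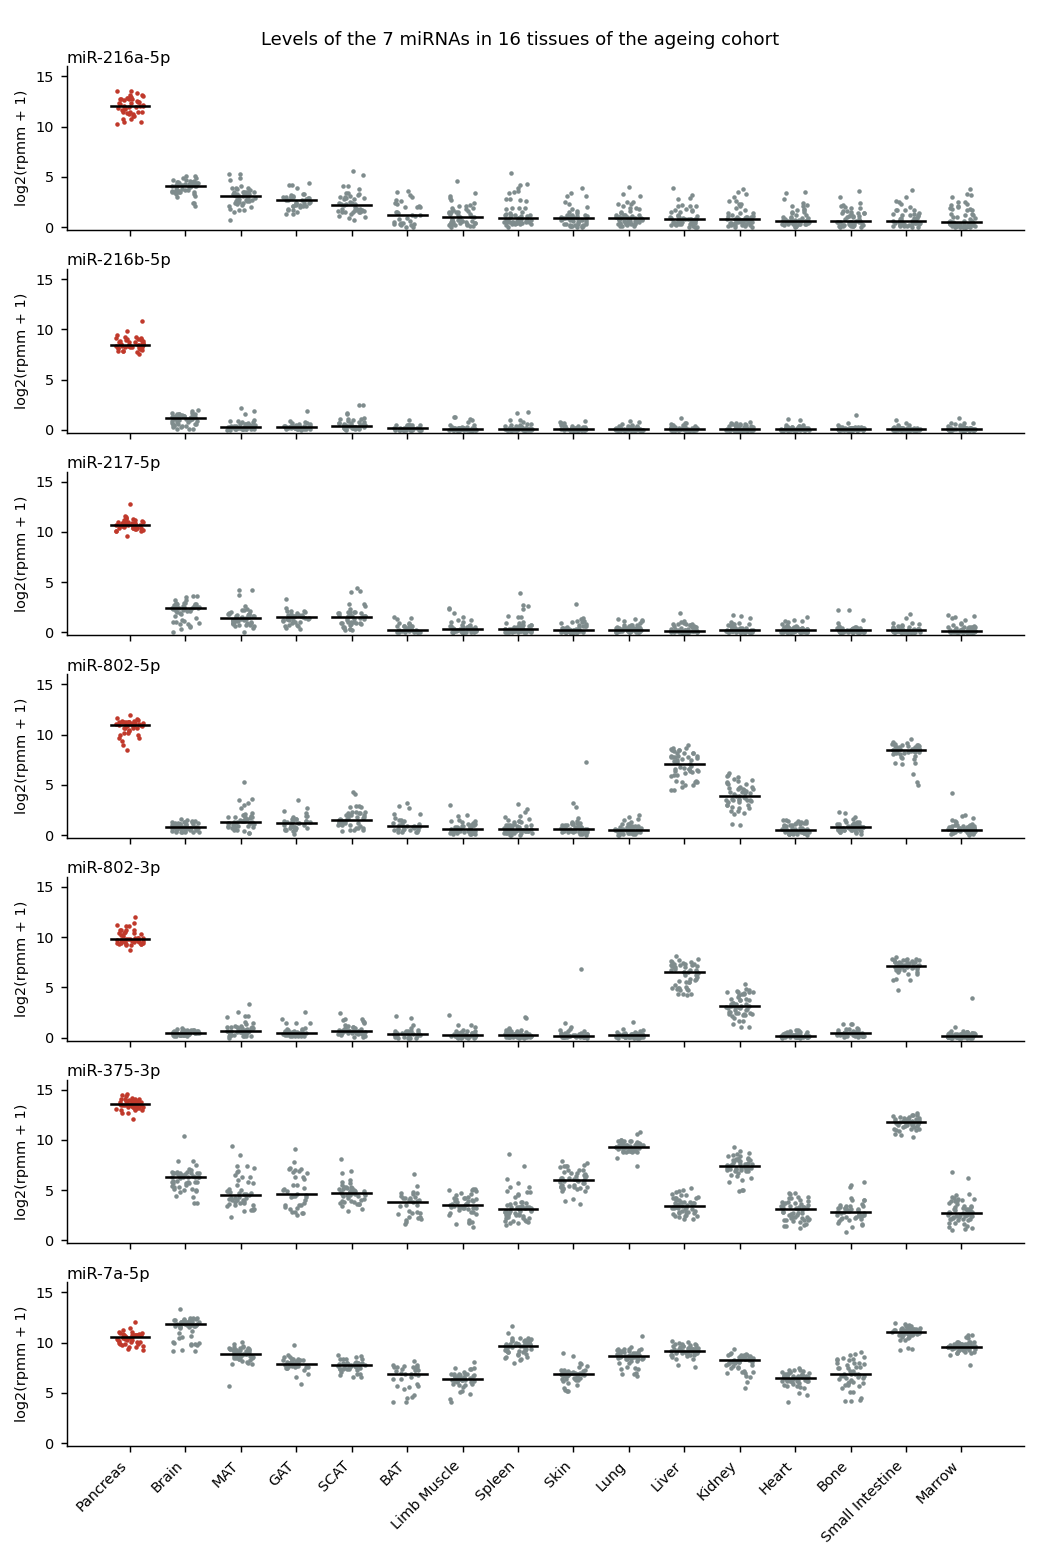
Level of each member, as log2(rpmm + 1), in every library of the aging cohort; each panel is a miRNA, each column of points a tissue, pancreas is red and the black bar is the median. The 3 acinar miRNAs stand far above every other tissue in pancreas alone, miR-802 has 4 raised tissues, miR-375-3p falls in steps from pancreas, and miR-7a-5p is present in all tissues with brain at the top.

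The opposite arms of the acinar members were far less abundant and, like them, highest in pancreas. In pancreas the medians of miR-217-3p, miR-216b-3p and miR-216a-3p were 82.2, 16.2 and 13.5 rpmm, and miR-375-5p had a median of 0 rpmm. miR-7b-5p had 1086 rpmm in brain, 174.9 rpmm in MAT and 164 rpmm in pancreas. The ratio of miR-7a-5p to miR-7b-5p was 3.59 in brain, 8.63 in pancreas and 522 in spleen, so these relatives were not distributed alike although they share a seed. Over the 16 tissue means, miR-216a-5p and miR-217-5p were most like each other (Pearson's r 0.993). Outside the members, the miRNAs most like miR-216a-5p, miR-216b-5p and miR-217-5p were miR-217-3p (r 0.959, 0.998 and 0.983), miR-216a-3p and miR-216b-3p. Both miR-802 arms were most like each other (r 0.999), and miR-375-3p was most like miR-200b-5p, miR-141-5p and miR-200c-5p (r 0.888, 0.882 and 0.871), all of the epithelial miR-200 family. miR-7a-5p was most like miR-7a-2-3p and miR-7b-5p, both at r 0.738. These values describe 16 points that share libraries and carry no test.

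Within pancreas the order of likeness changed. Over the 44 libraries, scaled to miRNA reads, miR-216a-5p varied most like miR-200a-3p (r 0.825), more so than like its neighbour miR-217-5p (r 0.659) or miR-216b-5p (r 0.487), and its r with miR-375-3p was -0.04. miR-216b-5p and miR-217-5p varied with each other (r 0.703), miR-7a-5p with miR-7b-5p (r 0.894), and miR-375-3p had no close companion (let-7c-5p, r 0.50). The arms of the miR-802 hairpin, nearly identical across tissues, did not vary together here (r -0.178), and the ratio of 5p to 3p ran from 0.154 to 4.29 with a median of 2.09, against medians of 2.37 in small intestine, 1.68 in liver and 1.86 in kidney. That ratio moved with depth in pancreas (Spearman's rho 0.77 over 44 libraries), and the part of depth in it was not tested. Every member was also higher where more of a library was miRNA, with r to the miRNA total between 0.27 for miR-802-3p and 0.822 for miR-375-3p. That total includes the members, 12.6 to 24.3% of it together, so a positive r is partly built in.

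Libraries were pooled for sequencing, and 38 of 53 pools held a pancreas library. The low levels outside pancreas were therefore split by pool. Among the other 15 tissues, the median of miR-216a-5p was higher in libraries that shared a pool with pancreas in 12, with a median ratio of 2.98. Marrow had 0.906 rpmm in 43 sharing libraries and 0.0698 rpmm in 13 others, and BAT had 2.95 rpmm in 22 and 0.235 rpmm in 8. For miR-217-5p it was 13 of 15 tissues (median ratio 3.37). For miR-7a-5p, which all tissues have, it was 7 of 15 (0.991). Brain did not follow, with 15.3 rpmm of miR-216a-5p in 35 sharing libraries and 16.98 rpmm in 14 others, and neither did GAT (4.45 and 6.81 rpmm) or MAT (7.10 and 8.07 rpmm). A level of about 1 rpmm of an acinar miRNA in another tissue thus moved with the pool, and how far the pool accounts for it was not tested.

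**Figure D2:**
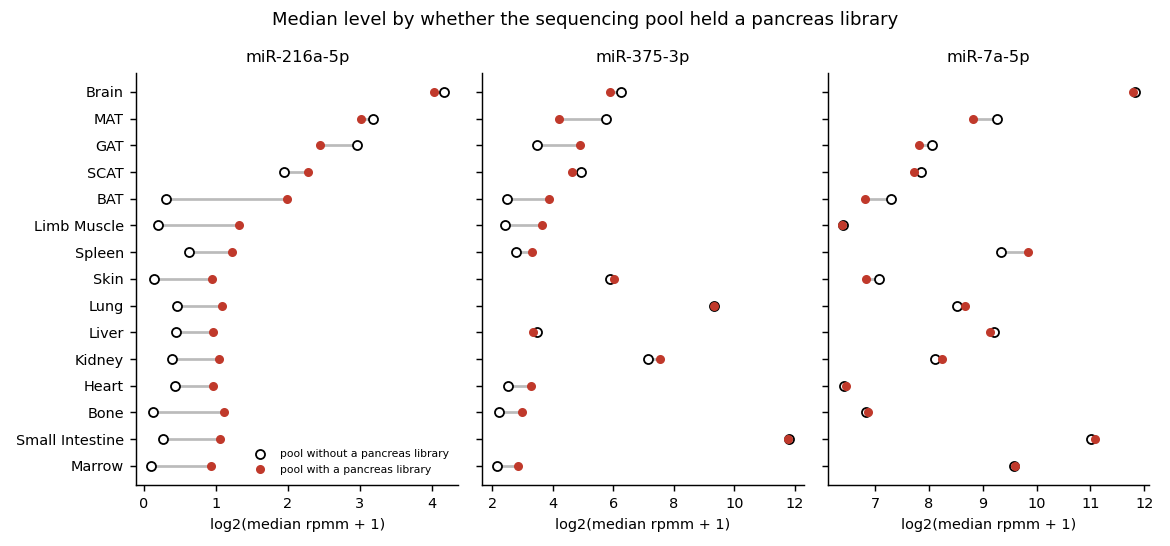
Median level of miR-216a-5p, miR-375-3p and miR-7a-5p, as log2(rpmm + 1), in 15 tissues other than pancreas, for libraries sequenced in a pool with a pancreas library (red) and in a pool without one (open). The red point of miR-216a-5p lies above the open one in 12 of 15 tissues, not so in brain, GAT and MAT, while those of miR-7a-5p lie on either side.

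Whether the members change with age was asked first in the pancreas itself. No member passed |rho| > 0.5, the study's own criterion for a correlation with age, while 4.85% of the 474 miRNAs tested in pancreas did. The acinar miRNAs nevertheless shared a tilt towards lower levels with age. Spearman's rho was -0.43 for miR-216a-5p (permutation adjusted p 0.0416), -0.42 for miR-217-5p (permutation adjusted p 0.049) and -0.41 for miR-216b-5p (permutation adjusted p 0.0528), each over 44 libraries. miR-802-5p (-0.23), miR-375-3p (-0.21), miR-7a-5p (-0.01) and miR-802-3p (0.07) were weaker. Within plates miR-216a-5p had the same sign in 7 of 8 and miR-217-5p in 8 of 8. With plate means removed, rho was -0.52 and -0.51, which passes the criterion, and without the 1-month libraries miR-216b-5p and miR-217-5p passed it as well (-0.53 and -0.59). Other settings gave weaker values. Without 24 and 27 months rho was -0.26 for miR-216b-5p and -0.27 for miR-217-5p, with miRNA-read scaling that of miR-217-5p was -0.27, and in males only that of miR-216a-5p was -0.31. The 6 epithelial miRNAs of gland tissue, miR-148a-3p and the miR-200 family, tilted the same way, with a median rho of -0.402 against -0.058 over all miRNAs and none past 0.5, and the miRNA total had a rho of -0.267. Their part was not tested.

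The levels behind this were uneven rather than gradual. At 3 months miR-216a-5p was at 5206, 5630, 7163 and 7342 rpmm. At 21 months it was at 1249, 1451, 1694, 2184 and 5518 rpmm, so 4 of 5 libraries lay below all those of 3 months and the fifth lay among them. At 24 months all 3 libraries (2159, 2507 and 3690 rpmm) lay below 3 months, whereas at 27 months the levels of 1750, 4237 and 6800 rpmm overlapped it. The highest levels of all were seen at 6 months, where libraries ran from 2854 to 11661 rpmm.

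Tested against 3 months, the log2 difference of miR-216a-5p at 21 months was -1.60 (SE 0.49), with limma's adjusted p 0.105 (1.27% of pancreas miRNAs called). Without the library at 5518 rpmm (21 months, replicate 11) it was -1.96 with adjusted p 0.00826, and with plate as a covariate -1.80 with adjusted p 0.00168, so the call turned on 1 library and on the plate term. The median difference of the 6 gland epithelium miRNAs in the same contrast was -1.55 (none called), against -0.10 over all miRNAs, and that of the 6 measured islet-linked miRNAs was -0.06 (none called). For miR-217-5p the 3 libraries of 24 months (1092, 1233 and 1246 rpmm) and the 3 of 27 months (1154, 1383 and 1896 rpmm) lay below the 4 of 3 months (1919, 2249, 2345 and 2627 rpmm). The same held for miR-216b-5p at 24 months (232, 236 and 305 rpmm) against 3 months (491, 545, 606 and 670 rpmm), and at 9, 18 and 27 months. The median difference from 3 months over all pancreas miRNAs was -0.17, -0.31, -0.14 and -0.19 at 9, 18, 24 and 27 months. Groups this small can lie apart by chance. The share of all pancreas miRNAs that lay apart from 3 months in this way, at any age, is not given here. Over the 9 ages compared with 3 months, limma called none of 63 differences of members, with 9 at an unadjusted p under 0.05, and edgeR called none, where 0.539% of all differences tested were called.

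The islet members overlapped 3 months at nearly all ages. miR-375-3p was at 12339, 14765, 16977 and 17059 rpmm at 3 months and at 4184, 11320, 11587, 11909 and 15332 rpmm at 21 months, a difference that limma did not call, and its highest age was 15 months with a median of 17824 rpmm. At 27 months alone all its libraries (9776, 9984 and 10012 rpmm) lay below those of 3 months. The median log2 difference over all pancreas miRNAs at that age was -0.19. There limma called 1 of 474 miRNAs and no member, and the share of miRNAs that lay apart is not given here. miR-7a-5p overlapped 3 months at every other age.

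**Figure D3:**
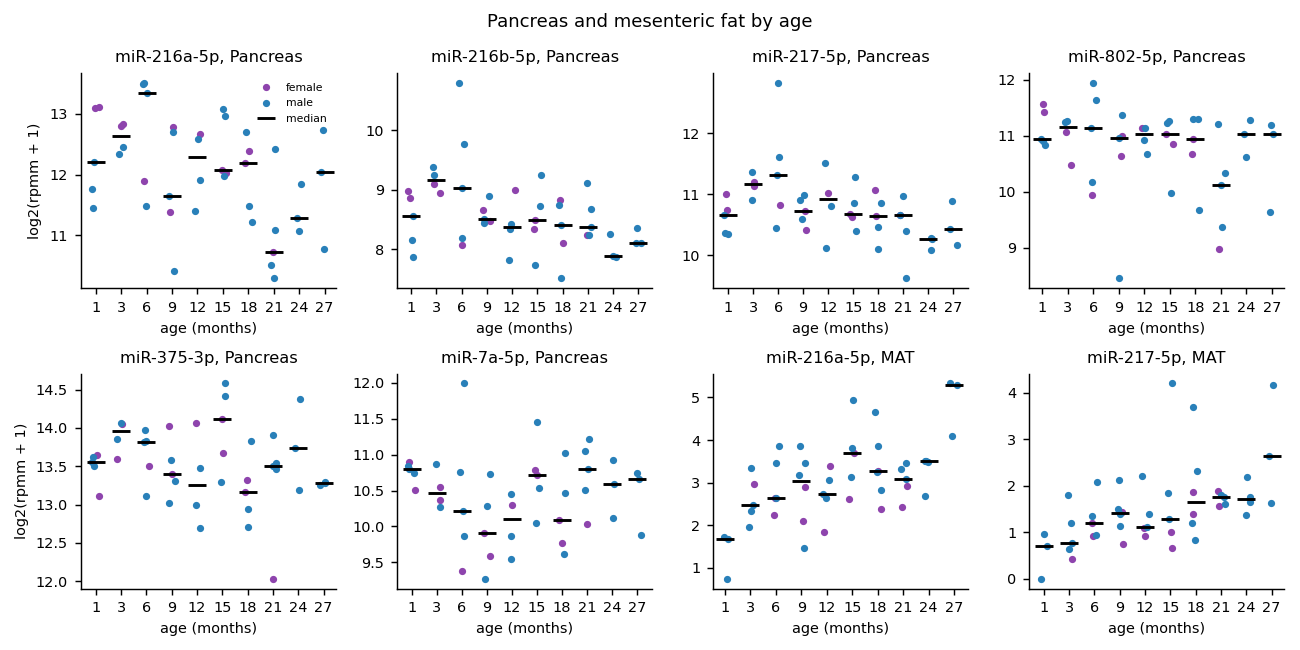
Level of 6 members in pancreas and of miR-216a-5p and miR-217-5p in MAT by age in months, as log2(rpmm + 1); each point is a library, purple from females and blue from males, and the bar is the median of an age. In pancreas the acinar miRNAs are lowest at 21 or 24 months with libraries of other ages overlapping, and in MAT the highest levels of miR-216a-5p, 38.3 and 39.2 rpmm, are those of 27-month libraries.

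Over all tissues, pancreas included, 2 of 82 pairs of a member and a tissue passed |rho| > 0.5, where 8.19% of all pairs tested did. Both were acinar miRNAs in MAT (6.77% of its miRNAs passed), the fat that lies next to the pancreas. miR-216a-5p had a rho of 0.54 (permutation adjusted p 0.00246, Pearson's r 0.578, and 0.517 without the 2 libraries of the most distant ages), and miR-217-5p had a rho of 0.58 (permutation adjusted p 0.000886, r 0.523 and 0.513), over 47 libraries. Within plates the sign was the same in 8 of 8 and 7 of 8. The other members in MAT had a rho between -0.02 and 0.12.

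The levels were low. miR-216a-5p in MAT was at 0.678, 2.22 and 2.31 rpmm at 1 month, at 2.89 to 9.09 rpmm in the 5 libraries of 3 months, and at 16.0, 38.3 and 39.2 rpmm at 27 months. All 3 libraries of 27 months had profiles closest to another fat depot. Without them and the 9-month library, rho of miR-216a-5p was 0.48, under the criterion. Without 24 and 27 months it was 0.41, without 1 month 0.44, and with miRNA-read scaling 0.44. miR-217-5p passed the criterion in each of these settings, at 0.53, 0.51, 0.51 and 0.56. Depth had a rho of 0.20 with age in MAT, and the 6 gland epithelium miRNAs there had a median rho of 0.114 with none past 0.5. For both miRNAs, rho in MAT and rho in pancreas had opposite signs and differed by 0.97 and 0.997 (permutation p 1e-05 for each, the smallest that 100000 shuffles can give). Both were picked because they had passed the criterion in MAT, so this p does not allow for the search behind that choice.

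Called instead by an adjusted permutation p under 0.05, 12 of the 82 pairs changed with age, where 18.4% of all pairs did. Beside those named above they were miR-802-3p (0.42), miR-802-5p (0.40) and miR-375-3p (0.43) in liver and miR-217-5p in GAT (0.44). The others were miR-7a-5p in BAT (0.43), miR-802-3p (0.38) and miR-7a-5p (-0.45) in SCAT, and miR-375-3p in skin (0.41). In BAT 222 of 526 miRNAs were called in this way, with a median rho of 0.385 over all. With median-ratio scaling rho of miR-7a-5p in BAT was -0.0286. The direct contrast of 21 with 3 months gave no call among 73 pairs by limma (6 at an unadjusted p under 0.05; 3.9% of all pairs called), and 1 by edgeR, miR-216a-5p in small intestine, where its median over all ages was 0.528 rpmm.

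Sex separated miR-802 and miR-375 in several tissues. Over 1 to 21 months and with age in the model, limma called 7 of 83 pairs of a member and a tissue at an adjusted p under 0.05, against 4.42% of all pairs. In liver, miR-802-3p was at 57.9, 147 and 281 rpmm (lowest, median and highest) in 14 females and at 18.4, 46.4 and 158 rpmm in 30 males, a log2 difference of 1.67 (SE 0.21, limma adjusted p 6.4e-08). miR-802-5p in liver was at 73.3, 229 and 418 rpmm in females and 21.6, 83.3 and 395 rpmm in males, a difference of 1.65 (SE 0.28, limma adjusted p 3.9e-05). The sexes overlapped, with most females above most males. In liver 8.18% of all miRNAs were called.

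Kidney differed in the same direction at lower levels. Of 555 kidney miRNAs 11 (1.98%) were called, and 3 of them were members. miR-802-5p was at 10.2, 36.1 and 70.8 rpmm in 14 females and at 1.03, 10.5 and 27.1 rpmm in 29 males (log2 difference 1.82, SE 0.28, limma adjusted p 6.06e-06), and miR-802-3p differed by 1.52 (SE 0.24). miR-375-3p was at 126, 282 and 626 rpmm in kidneys of females and 30.3, 143 and 272 rpmm in those of males (1.15, SE 0.27, limma adjusted p 0.00464). The median of all kidney miRNAs was higher in females by 0.27, and under the alternatives, median-ratio scaling among them, the 3 differences stayed between 0.74 and 2.13 and called. In the tissues with the most miR-802 no sex difference was called: in small intestine the arms differed by 0.14 and 0.18, and in pancreas miR-802-5p by -0.09 and miR-802-3p by -0.47 (limma adjusted p 0.302). Whether the liver and kidney differences exceed those of pancreas and small intestine was not tested.

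miR-375-3p also differed between the sexes in skin and GAT, in opposite directions. In skin it was at 35.3, 110 and 230 rpmm in 13 females and 11.2, 43.2 and 83.5 rpmm in 28 males (log2 difference 1.17, SE 0.22, limma adjusted p 5.6e-05), in a tissue where 29.2% of all miRNAs were called, among them 4 of the 6 gland epithelium miRNAs (3 higher and 1 lower in females). In GAT, which lies on the ovary or the epididymis, it was at 5.64, 10.2 and 69.1 rpmm in 13 females and 4.96, 32.0 and 229 rpmm in 20 males (-1.56, SE 0.47, limma adjusted p 0.0275), and 9.83% of all miRNAs were called. The gland epithelium miRNAs moved with it, 3 of 6 being called lower in females with a median difference of -1.04, and their part was not tested. With no filter on low values, or with the set of title numbers as a covariate, the GAT difference was no longer called.

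**Figure D4:**
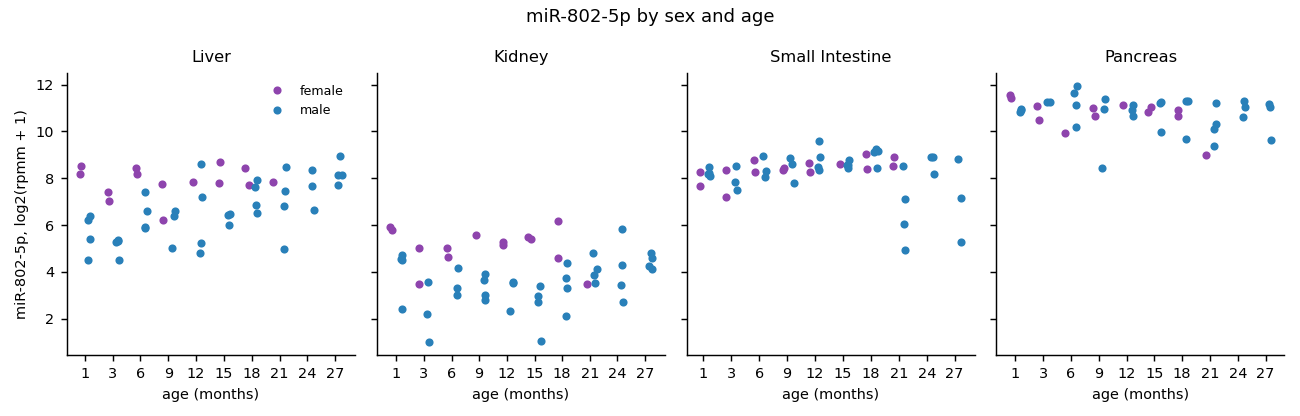
Level of miR-802-5p by sex and age in liver, kidney, small intestine and pancreas, as log2(rpmm + 1); each point is a library, purple from females and blue from males. In liver and kidney most females lie above males of the same age, old males of liver reach the level of females, and in small intestine and pancreas the sexes are mixed.

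Since females were sampled only to 21 months, age and sex are tangled in liver, and the males were also taken alone. Over 37 male livers, rho with age was 0.73 for miR-802-3p and 0.69 for miR-802-5p (permutation p 1e-05 for each, the smallest that 100000 shuffles can give; adjusted p 0.000154 for each) and 0.51 for miR-375-3p (permutation adjusted p 0.00935), where 14.6% of liver miRNAs passed 0.5 in males. In males of 3 months miR-802-3p was at 18.4, 19.1, 19.1 and 28.2 rpmm, and at 27 months at 102, 141, 179 and 231 rpmm, with no overlap. The share of all liver miRNAs whose males of these ages lay apart is not given here. In males of 21 months miR-802-3p was at 45.1, 90.4, 130 and 158 rpmm. Its log2 difference to 3 months was 2.14, which limma called (adjusted p 0.000498, 8.07% of liver miRNAs called in males). The median difference over all liver miRNAs in both sexes was 0.38. The 27-month males lay within the range of all females. In females of 3 months it was at 115 and 129 rpmm, and the single female of 21 months had 106 rpmm. Over 1 to 21 months, rho of miR-802-3p was 0.54 in 30 males and 0.13 in 14 females, and that of miR-802-5p was 0.52 and -0.01, but no difference of rho between the sexes passed among the 8 pairs compared (permutation adjusted p 0.502 and 0.455 for these). Across all tissues, 8 of 83 pairs passed 0.5 in males, against 10.4% of all pairs. Beside those in liver they were miR-216a-5p (0.62) and miR-217-5p (0.57) in MAT, miR-216a-5p in BAT (-0.62), miR-7a-5p in SCAT (-0.57) and miR-375-3p in skin (0.57). The BAT value, over 21 libraries, had a permutation adjusted p of 0.183. Over both sexes the BAT median of miR-216a-5p was 2.95 rpmm in pools with a pancreas library and 0.235 rpmm in others. The part of the pool in this rho was not tested.

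In the parabiosis cohort, the study's questions were whether exposure to a young circulation changes the aged mouse (HA minus IA) and the reverse (HY minus IY). limma called none of the 30 pairs of a member and a tissue tested in HA minus IA (6 at an unadjusted p under 0.05, 0.965% of all miRNAs called) and none of 30 in HY minus IY (1 at an unadjusted p under 0.05, 0% of all miRNAs called), and edgeR called no member in either. In IA minus IY limma called none (2 at an unadjusted p under 0.05, 8.13% of all miRNAs called), and edgeR called 1, miR-216a-5p in heart (log2 difference -2.07). Its heart medians were 0.324 rpmm in IY and 0.328 rpmm in IA, and the highest library had 10.2 rpmm in IY and 0.722 rpmm in IA. The largest difference in HA minus IA by p was miR-7a-5p in kidney, lower by 0.66 on the log2 scale in HA (limma adjusted p 0.094).

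The 5 calls were all between the partners of heterochronic pairs, HA minus HY, where 9.81% of all miRNAs tested were called, and all were miR-802 or miR-375 in kidney or liver. In kidney (22.7% called), miR-375-3p was at 244, 299 and 360 rpmm (lowest, median and highest) in 6 HA mice and 94.5, 109 and 337 rpmm in 7 HY mice (log2 difference 1.195, SE 0.28, limma adjusted p 0.00238). miR-802-5p in kidney was at 34.2, 41.6 and 130 rpmm in HA and 14.7, 18.2 and 46.9 rpmm in HY (1.05, SE 0.27, limma adjusted p 0.00514), and miR-802-3p differed by 1.06 (SE 0.26, limma adjusted p 0.00288). In liver (7.21% called), miR-802-3p was at 107, 186 and 336 rpmm in 7 HA mice and 32.96, 77.0 and 155 rpmm in 7 HY mice (1.26, SE 0.34, limma adjusted p 0.0105), and miR-802-5p differed by 1.16 (SE 0.36, limma adjusted p 0.0364). The groups overlapped in each case.

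The isochronic groups, which shared a strain but for 1 pair, had medians between those of HY and HA for the called pairs, except miR-802-3p in kidney, where IY (10.3 rpmm) was no higher than HY (10.5 rpmm). The median of miR-802-5p in kidney was 21.3 rpmm in IY and 30.7 rpmm in IA, and that of miR-802-3p was 10.3 and 16.2 rpmm, log2 differences of 0.65 for both that were not called (limma adjusted p 0.11 and 0.0851). In liver the medians of miR-802-5p were 159 rpmm in IY and 228 rpmm in IA. miR-375-3p in kidney, by contrast, had medians of 155 rpmm in IY and 151 rpmm in IA. The median difference of all liver miRNAs in HA minus HY was 0.30, and with median-ratio scaling, which removes it, neither liver miR-802 arm was called (0.87 and 0.77 for the 3p and the 5p arm, limma adjusted p 0.0681 and 0.172). miR-802-5p in liver was also not called with miRNA-read scaling, with no filter or with a mean of at least 10 rpmm (limma adjusted p 0.146, 0.0814 and 0.0571). In kidney the calls held under every alternative run. The miR-802-5p call in liver was also lost when any of 7 single libraries was left out, HA replicates 11A, 14A, 1A and 2A or HY replicates 20B, 2B and 5B (limma adjusted p up to 0.132). In kidney, 4 of the 7 measured islet-linked miRNAs and 1 of the 6 gland epithelium miRNAs were also called higher in HA.

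MAT of the parabiosis cohort looked unlike MAT of the aging cohort. miR-216a-5p ran from 10.7 to 8847 rpmm over 27 libraries, with a median of 308 rpmm. In 13 libraries it was at or under 100 rpmm and in 13 over 1000 rpmm, and 12 reached the range of the aging cohort's pancreas libraries (1249 rpmm and above), whereas the highest of 47 MAT libraries of the aging cohort had 39.2 rpmm. Most other members had wide ranges too. miR-375-3p ran from 11.4 to 11091 rpmm, miR-217-5p from 3.21 to 3057 rpmm and miR-216b-5p from 0.572 to 646 rpmm. miR-802-5p ran from 1.98 to 2909 rpmm and miR-802-3p from 0.382 to 692 rpmm. miR-7a-5p ran only from 219 to 2395 rpmm and did not always follow miR-216a-5p. It was at 1044 rpmm in HA replicate 11A beside 13.8 rpmm of miR-216a-5p, and at 312 rpmm in IA replicate 19A beside 3733 rpmm. Over the parabiosis MAT libraries the ratio of miR-217-5p to miR-216a-5p was 0.223 to 0.541 with a median of 0.346, next to 0.383 in pancreas. That of miR-216b-5p to miR-216a-5p had a median of 0.0693, next to 0.0789. Neither ratio singled out pancreas. In other tissues of the aging cohort with enough reads, medians of the first ran from 0.116 in lung to 0.473 in SCAT. Those of the second ran from 0.0757 in spleen to 0.122 in SCAT. In the MAT library of HA replicate 12A, with 8847 rpmm of miR-216a-5p, miR-148a-3p was at 4598 rpmm and miR-200c-3p at 3040 rpmm. In that of IY replicate 17B, with 10.7 rpmm, they were at 227 and 173 rpmm. These were the libraries with the most and the least miR-216a-5p, and some between them were out of step. HA replicate 2A had 634 rpmm of miR-200c-3p beside 18.2 rpmm of miR-216a-5p, and IY replicate 10B had 1338 beside 308 rpmm. The relation over the 27 libraries was not tested.

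High libraries were found in every group. miR-216a-5p was over 1000 rpmm in 3 of 8 IY, 3 of 6 HY, 2 of 6 HA and 5 of 7 IA libraries. In 8 of 12 complete pairs 1 of the joined mice was over 1000 rpmm and the other was not, for instance 30.7 and 7913 rpmm in IY pair 15 and 24.6 and 7664 rpmm in heterochronic pair 1. Neither limma nor edgeR called any of 598 miRNAs in MAT in the 4 contrasts, with 1 to 157 at an unadjusted p under 0.05 by limma. In GAT the acinar miRNAs stayed at or under 68.1 rpmm, while miR-375-3p ran from 2.78 to 2772 rpmm with a median of 122 rpmm, against 4.96 to 548 rpmm in GAT of the aging cohort. The summed gland epithelium miRNAs in these GAT libraries ran from 414 to 31929 rpmm and moved with it on the log2 scale (Pearson's r 0.81, Spearman's rho 0.84 over 30 libraries, permutation adjusted p 1.67e-05 and 2.5e-05 over 5 relations, r 0.761 without the 2 libraries farthest from the median of that sum). In the aging cohort r was 0.81 in MAT, 0.73 in GAT and 0.60 in BAT. In SCAT it was 0.25 (permutation adjusted p 0.109). The library with the most miR-375-3p, IA replicate 6A, also had the most miR-200c-3p (14185 rpmm).

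**Figure D5:**
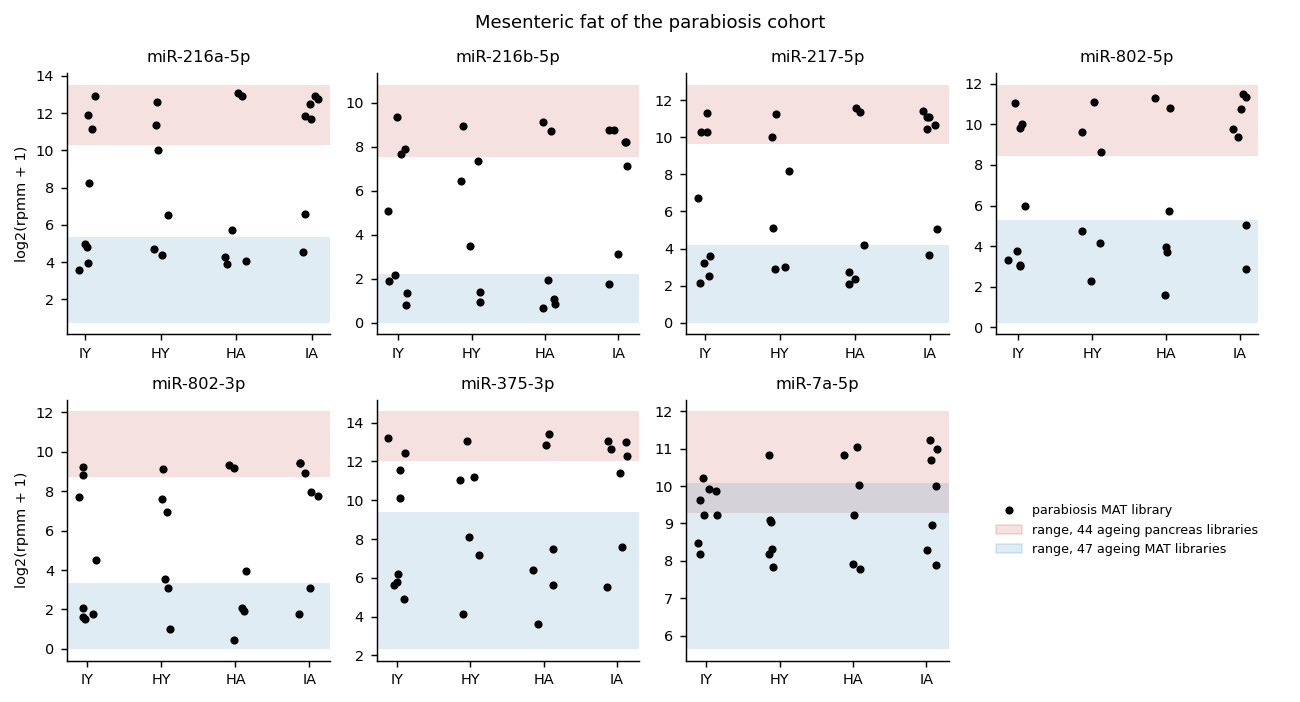
Level of the 7 members in the 27 MAT libraries of the parabiosis cohort by group (IY, HY, HA, IA), as log2(rpmm + 1); the red band is the range of the 44 pancreas libraries and the blue band that of the 47 MAT libraries of the aging cohort. In all 4 groups some libraries of miR-216a-5p lie in the pancreas band and others in or near the MAT band, with 13 of 27 at or under 100 rpmm.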

How the data were processed

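Small RNA libraries (MGIEasy kit, 16 samples per sequencing pool) were processed by the authors with miRMaster, mapping to mm10 with Bowtie at 1 mismatch and to miRBase 22, and libraries under 2 M aligned reads (M for 1000000) were dropped by them. The deposited signal is in reads per 1000000 mapped reads (rpmm), so a library with more of another RNA class has less left for miRNAs. Whole reads were recovered from the rpmm steps (miRNA values whole within 0.05 reads: 99.0% in the aging and 98.8% in the parabiosis cohort). Samples were grouped by the labels, and 3 columns of the aging cohort were not used.

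Members and lists were chosen with earlier results of these data known. The text names the members, the other arms of their hairpins with miR-7b and miR-216c, the 3 miRNAs most alike by Pearson's r, and called pairs, and marker lists only as counts and ranges. The islet-linked list held both arms of miR-184 and miR-204, miR-153-3p and miR-182, miR-183 and miR-96. miRNAs of at least 1 rpmm in 10% of a tissue's libraries were tested. In limma (3.58.1, R 4.3.3) log2(rpmm + 1) was fitted per tissue with age as a factor (and sex for the sex contrast, or the 4 parabiosis groups), eBayes with trend and Benjamini-Hochberg adjustment within tissue and contrast. Log2 differences on that scale understate changes of low miRNAs. Spearman's rho was tested two-sided with 100000 shuffles. Tissues were called separated where mean log2 levels differed by more than the larger SD. edgeR (4.0.16) on recovered reads, 2 other scalings, filters, a pseudocount of 0.1 rpmm, batches, males alone and single-library omissions served as alternatives, and the scripts were tested on simulated data. In miRNA-read scaling the divisor was the signal of all miRNAs except the members. Omission of single libraries for rho and in parabiosis kidney and liver was added after the data were seen. The labels of the aging cohort do not tie libraries to animals, so p-values there measure the spread between libraries.

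Strains follow the study's sample sheet, from which its animal summary differs in part, and the strain name of the HY mice is not reported here. Same-numbered parabiosis mice were joined, so the joined pair is a true pairing. limma's consensus correlation between partners over all miRNAs was 0.24 in liver, 0.20 in limb muscle, 0.10 in kidney, 0.08 in heart, -0.16 in GAT and -0.28 in MAT.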

Additional observations from a re-analysis of the deposited data

Results flagged for a closer look

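Among 84 groups of 4 to 10 libraries, 9 held a library far from the others of its group by Dixon's criterion, applied to rpmm. Chance alone meets it in about 1 of 20 groups where values are normally distributed. Levels in parabiosis MAT were not, with miR-802-5p from 3.79 to 2180 rpmm in HY, and the same libraries were often high for several members there. The count of 9 can therefore not be held against that rate. In pancreas these were miR-216a-5p at 21 months (replicate 11, 5518 rpmm, above the other 4), miR-802-3p at 12 months (replicate 36, 813 rpmm, above the other 3) and miR-375-3p at 1 month (replicate 17, 8816 rpmm, below the other 4). In MAT of the parabiosis cohort the HY library of replicate 20B stood apart for 5 members at once, with 484 rpmm of miR-216b-5p, 2180 rpmm of miR-802-5p, 552 rpmm of miR-802-3p, 8614 rpmm of miR-375-3p and 1812 rpmm of miR-7a-5p, and the IY library of replicate 15B had 646 rpmm of miR-216b-5p. The correlation with age of miR-216a-5p and of miR-217-5p differed between MAT and pancreas by 0.97 and 0.997, positive in MAT and negative in pancreas (permutation p 1e-05 for each, the smallest that 100000 shuffles can give). Only these miRNAs, which had passed the age criterion in MAT, were compared, so the p does not allow for that choice.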

How the results depend on the processing

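Of the members' 82 pairs with a tissue, 2 passed the age criterion, and this count was 1 with miRNA-read scaling, 1 with median-ratio scaling, 0 with a mean of at least 10 rpmm (42 pairs tested, neither of the reported MAT pairs among them), 1 without libraries closest to another tissue, 4 with plate means removed, 8 in males only, 1 without 24 and 27 months and 12 by adjusted p. The count of 0 at 21 against 3 months became 1 with miRNA-read scaling, median-ratio scaling, plate, set or edgeR and 2 in males only. The count of 0 over the pancreas ages became 1 with plate or set as a covariate. Leaving out 1 library gave 0 to 1 call in both, and 4 to 6 in parabiosis.

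Keeping pancreas replicate 02 turned the 21-month differences of miR-216a-5p, miR-216b-5p, miR-217-5p, miR-375-3p and miR-802-5p to 0.88, 1.199, 1.54, 1.01 and 1.00, those at 18 months of miR-216b-5p and miR-375-3p to 0.99 and 0.91, those at 24 months of miR-216a-5p, miR-216b-5p and miR-217-5p to 1.28, 0.67 and 1.30, and that at 27 months of miR-216b-5p to 0.85. The 21-month difference of miR-802-3p was -0.53 in males only, and ran from -0.27 to 0.33 with 1 library left out. The age rho of miR-375-3p in pancreas was 0.00567 with median-ratio scaling, that of miR-7a-5p was 0.13 and 0.11 with miRNA-read and median-ratio scaling and 0.18 without 1 month, and that of miR-7a-5p in BAT was -0.0286 with median-ratio scaling. The causes were not tested. The sex counts (6 to 8) and parabiosis counts (4 to 7) stayed within 1.5 times the reported ones.

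With the joined pair as a random replicate block, 6 parabiosis pairs were called, the 5 named ones and miR-375-3p in liver (HA minus HY 0.77), and as a fixed block 6 in HA minus HY.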
